A study of Homo sapiens with 12 samples.

Results

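Aldehyde dehydrogenases are enzymes that oxidise reactive aldehydes to carboxylic acids with NAD or NADP as cofactor. Some make retinoic acid from retinaldehyde, some clear acetaldehyde or the aldehydes left by lipid peroxidation, and others serve amino acid metabolism. High activity of the ALDH1A enzymes is widely used to mark stem-like cells in tumours. Here 10 genes of the family were chosen by their symbol in the deposited gene table: ALDH1A1, ALDH1A3, ALDH1B1, ALDH2, ALDH3A1, ALDH3A2, ALDH3B1, ALDH7A1, ALDH9A1 and ALDH18A1. All 10 had a row, among 22564 genes in the table, and each symbol had 1 row. The list was made with earlier results of these data known, so the levels of the set against other genes are a description only.

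The libraries came from A549, an established human lung adenocarcinoma cell line, transfected with small interfering RNA. Of the 12 libraries, 6 were siYTHDC1, against the nuclear m6A reader YTHDC1, and 6 were siSCR, with a scrambled sequence, each at 40 nM for 48 to 72 h. Total RNA was sequenced after removal of ribosomal RNA, and the study asked which transcripts depend on YTHDC1. What follows rests on the authors' mean normalized count, which is 1 value per gene over all 12 libraries of both groups. Each value is therefore the authors' mean, with no SD and no n. The study's methods give 1 nominal depth for all samples, and the depth reached in each library is unknown. The columns of the authors' own comparison of siYTHDC1 with siSCR were not used here, so no difference between the groups is given for any gene.

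The table was checked against the labelled cell type. The keratin genes KRT8, KRT7 and KRT18 had authors' means of 27600, 17118 and 14908, at ranks 14, 37 and 46 of all genes, and CDH1, the gene of E-cadherin, had 1011. KRT19 had 673, and EPCAM was low for an epithelial marker, at 58.4. Of 10 markers of blood, endothelial, stromal and liver cells, 2 had a row, LUM at 10.2 and CDH5 at 7.19. The mean of the target, YTHDC1, was 232, which pools depleted and control cells and so does not check the labels.

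ALDH1A1, the cytosolic retinaldehyde dehydrogenase, stood out from the rest of the family. Its authors' mean of 34836 was the eighth highest of all genes in the table. Per kb of exon it had 12266, against 4858 for KRT18, 4280 for KRT7 and 4011 for KRT8. Other lengths were not used for the keratins. ALDH3A1, which oxidises aromatic and medium-chain aldehydes and is abundant in the cornea, followed at 13584, the 54th highest of all genes. No other member reached the top 1% of genes.

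The next members by mean act on lipid-derived aldehydes. ALDH3A2, the fatty aldehyde dehydrogenase whose loss causes Sjögren-Larsson syndrome, had an authors' mean of 3299. ALDH3B1, which also acts on aldehydes from lipid peroxidation, had 2265. Both lay above the 95th percentile of all genes, at 97.6 and 95.7.

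Means of ALDH18A1, ALDH1B1 and ALDH2, which are mitochondrial enzymes, ran from 416 to 1404. ALDH18A1 encodes the enzyme that makes the proline and ornithine precursor pyrroline-5-carboxylate from glutamate, and had an authors' mean of 1404. ALDH1B1, a mitochondrial enzyme close in sequence to ALDH2, had 1024. ALDH2, the main enzyme of acetaldehyde clearance, had the lowest mean of the 10 members, 416, at the 72.6th percentile. Per kb of exon the levels were 328 for ALDH1B1 and 42.8 for ALDH2, the same order as in the mean. Per kb of coding sequence they were closer, at 660 and 268, so the size of this gap depends on the length used.

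The other members lay between these. ALDH9A1, which oxidises gamma-trimethylaminobutyraldehyde on the way to carnitine, had an authors' mean of 674. ALDH7A1, an enzyme of lysine breakdown known as antiquitin, had 578. ALDH1A3, the other retinaldehyde dehydrogenase among the members, had 509, against 34836 for ALDH1A1. All 10 members lay above the median of the 14100 protein-coding genes, 313, and their median was 1214 against 65.8 over all genes. This describes a list made with earlier results of these data known.

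**Figure D1:**
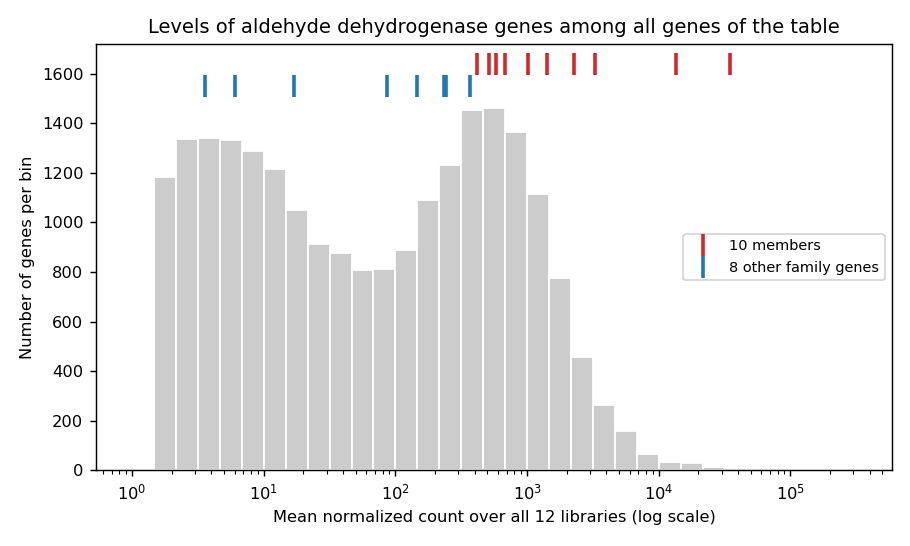
Number of genes (y axis) in each bin of the authors' mean normalized count (x axis, log scale, all 12 libraries pooled) for the 22564 genes of the table as grey bars, with 1 red tick for each of the 10 members and 1 blue tick for each of 8 other aldehyde dehydrogenase genes. The members lie between 416 and 34836 and the other family genes between 3.56 and 370. The members were chosen with earlier results of these data known, so the gap between the sets is no finding.

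The remaining genes of the family, left out of a list made with earlier results known, had lower means. Of 9 other aldehyde dehydrogenases listed, 8 had a row, and all 8 had a lower mean than ALDH2 before scaling by length. ALDH16A1 came closest at 370, and per kb of exon its level of 80.6 lay above ALDH2 at 42.8 and ALDH7A1 at 32.3. Per kb of the longest transcript it had 92.5, against 43.5 for ALDH2 and 121 for ALDH7A1. Per kb of coding sequence it had 154, below ALDH2 at 268 and ALDH7A1 at 348. Next by mean were the mitochondrial folate enzyme ALDH1L2 at 243 and the succinic semialdehyde dehydrogenase ALDH5A1 at 233. ALDH6A1, of valine and pyrimidine breakdown, had 145, and ALDH4A1, which oxidises pyrroline-5-carboxylate to glutamate, had 87.0. The third retinaldehyde dehydrogenase, ALDH1A2, had 17.0, while ALDH8A1 had 6.09 and the cytosolic folate enzyme ALDH1L1 had 3.56. ALDH3B2 had no row and was not analysed here.

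A longer transcript yields more reads at the same abundance, so levels were compared between genes per kb of exon. The exons were those of all annotated transcripts of a gene, pooled. They come from a later annotation release than the one used for counting, so some may not have been counted. On this scale ALDH1A1 had a level of 12266 per kb and ALDH3A1 had 3503 per kb, against a median of 32.2 per kb over the 21798 genes with a length. ALDH1A1 was 3.50 times ALDH3A1, and ALDH3A1 was 9.38 times the next member, ALDH18A1, in level per kb. The first of these ratios was 2.62 per kb of the longest transcript and 2.32 per kb of coding sequence. On both of those scales ALDH3A2 was the next member, and ALDH3A1 was 9.76 and 4.74 times its level.

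Below this step the members were closer to each other. Levels per kb were 374 for ALDH18A1, 342 for ALDH3B1 and 328 for ALDH1B1, with neighbours in this order differing by 1.09 and 1.04 times. ALDH9A1 and ALDH3A2 had 224 and 215 per kb. Then came ALDH1A3 at 95.5, ALDH2 at 42.8 and ALDH7A1 at 32.3 per kb. With a pooled mean only, no spread between libraries can be set against these steps, so the order of close neighbours cannot be told.

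Which exons are counted mattered most for ALDH7A1 and ALDH3A2, whose annotated exons cover 17914 and 15331 bases. Their longest single transcripts have 4765 and 5084 bases. Per kb of the longest transcript, ALDH3A2 had 649 and was the third member, and ALDH7A1 had 121, above ALDH2 at 43.5. Per kb of coding sequence, ALDH3A2 had 2111 and ALDH3B1 had 1617. ALDH1A1 and ALDH3A1 were first and second on every one of these scales.

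**Figure D2:**
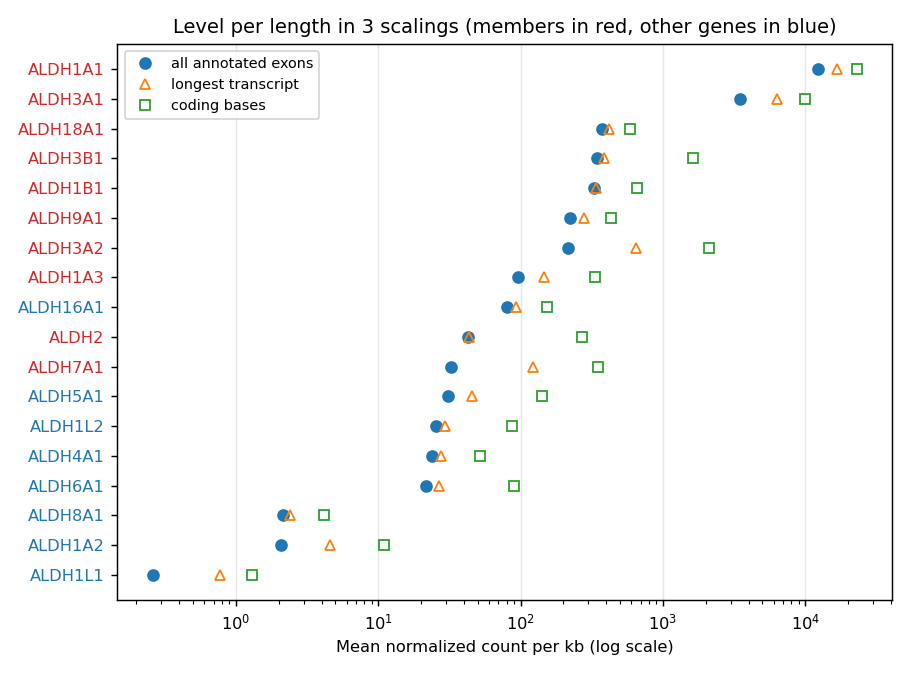
Mean normalized count per kb (x axis, log scale) for 18 aldehyde dehydrogenase genes (y axis; members in red, other genes in blue), scaled by all annotated exons (circles), the longest transcript (triangles) or the coding bases (squares). ALDH1A1 lies at 12266 and ALDH3A1 at 3503 per kb of all exons, and the 3 symbols spread widest where annotated exons far exceed the coding part, as in ALDH7A1.

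Summed over the 18 family genes with a row, ALDH1A1 held 69.7% of the level per kb and ALDH3A1 held 19.9%. Together they held 89.5%. The other 8 members had shares from 0.18% to 2.12%, and the 8 genes outside the member list held 1.06% in all. Without length scaling the share of ALDH1A1 and ALDH3A1 together was 81.1%. No share was computed per kb of coding sequence. On that scale ALDH3A1 was 4.74 times ALDH3A2, against 16.3 times with all exons, so the share there can differ.

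**Figure D3:**
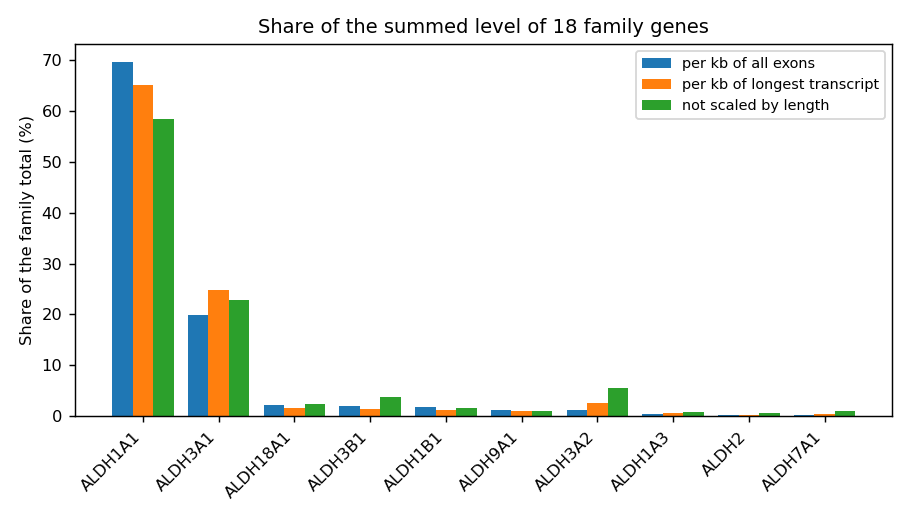
Share of the summed level of 18 aldehyde dehydrogenase genes (y axis, percent, from 0) held by each of the 10 members (x axis), from the mean per kb of all exons, per kb of the longest transcript, or not scaled by length. ALDH1A1 holds 69.7%, 65.0% and 58.4% on these scales and ALDH3A1 holds 19.9%, 24.8% and 22.8%.

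The members lie on 8 chromosomes (GRCh37). ALDH1A1 spans 75515587 to 75695358 on the minus strand of chromosome 9, and ALDH1B1 lies far from it on the plus strand of the same chromosome, at 38392699 to 38398658. ALDH3A2 (plus strand, 19551449 to 19589073) and ALDH3A1 (minus strand, 19641297 to 19652256) are neighbours on chromosome 17, 52.2 kb apart with no protein-coding gene between them. In level per kb ALDH3A1 was 16.3 times ALDH3A2 with all exons, 9.76 times with the longest transcript and 4.74 times with the coding length. The others are ALDH18A1 on chromosome 10 (97365698 to 97416468, minus), ALDH3B1 on chromosome 11 (67776048 to 67796749, plus), ALDH9A1 on chromosome 1 (165631453 to 165667799, minus), ALDH1A3 on chromosome 15 (101417919 to 101456831, plus), ALDH2 on chromosome 12 (112204691 to 112255336, plus) and ALDH7A1 on chromosome 5 (125866892 to 125931054, minus).

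Overlapping genes could add or take reads, since the libraries were made with a stranded kit but the sources used here do not say whether the counting used the strand. ALDH1A3 had the widest overlap in exons, with ALDH1A3-AS1 on the opposite strand, which shares 32.1% of the exon bases of ALDH1A3 and had an authors' mean of 136. A long non-coding RNA on the opposite strand of ALDH3A1 (ENSG00000264785) shares 2.53% of its exon bases and had a mean of 64.4. CYP1D1P within ALDH1A1, SLC47A2 and SNORA31 at ALDH3A2 and RNU6-963P within ALDH7A1 share no exon base with these members and had means from 1.72 to 8.09. A long non-coding RNA within ALDH3B1 (ENSG00000255306) likewise shares no exon base and had 8.04. A further 7 overlapping genes of the annotation had no row. The widest of these in exons is ENSG00000257767, a protein-coding gene on the same strand as ALDH2. It shares 6.99% of the exon bases of ALDH2. ALDH7A1 had a mean of 578, against 16.9 for its processed pseudogene ALDH7A1P1, and the longest run of bases they share is 155. This run is longer than 1 read at the read length in the study's methods, so a read within it could match both genes. How many reads did so was not measured.

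Coding sequences of the members were then compared, to see how far reads could be shared within the coding part of the family. Exon bases outside the coding sequences were not compared, so sharing of reads there was not measured. The closest pair was ALDH1B1 and ALDH2, with 72.0% identical bases. ALDH3A1 and ALDH3A2 had 67.8%, and ALDH1A1 and ALDH1A3 had 67.3%. Over the 45 pairs the longest identical run was 25 bases, again between ALDH1B1 and ALDH2. Between ALDH1A1 and ALDH1A3 it was 20 bases. The coding part of ALDH18A1 is longer than the others, 2385 bases, which leaves more room for chance matches in its alignments.

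**Figure D4:**
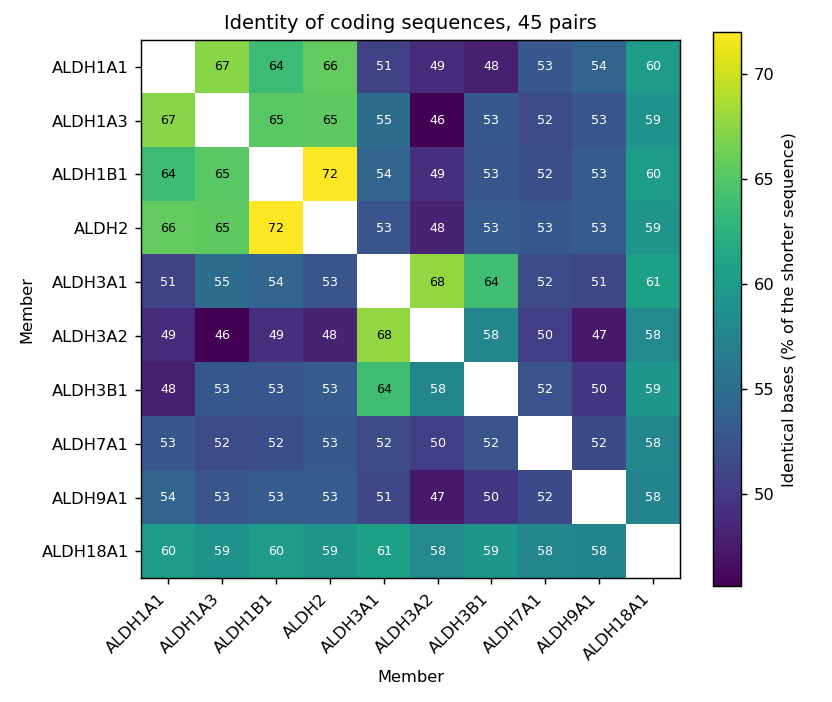
Identical bases as a percentage of the shorter coding sequence (colour and printed number) for each of the 45 pairs of the 10 members (both axes), from global alignments of reference sequences. ALDH1A1, ALDH1A3, ALDH1B1 and ALDH2 form one block, with the highest value of 72.0% between ALDH1B1 and ALDH2, and ALDH3A1 with ALDH3A2 stands at 67.8%.

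RefSeq promoters (GRCh38.p14, 250 bases before to 50 after the gene start) were found for 8 of the 10 members; ALDH2 and ALDH3A1 had no entry. The stretch where a TATA box usually lies, 40 to 11 bases before the start, is shown for the most abundant member and for 3 others with lower means. Capitals mark the letters ATAAA, the end of a TATA box, where they occur on the sense strand:
ALDH1A1 (chr9:72953064-72953093, minus strand): ccgtgcagATAAAaaaggaacaaATAAAgc
ALDH1A3 (chr15:100879791-100879820, plus strand): tggggcgctgcATAAAgcggcggggagctg
ALDH1B1 (chr9:38392662-38392691, plus strand): gcaggcggagcctcattggccgctgagccc
ALDH18A1 (chr10:95656722-95656751, minus strand): cggctgcccaggtttactcttacgccactg

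ATAAA was found at 2 places for ALDH1A1, starting 32 and 17 bases before the gene start, and at 1 place for ALDH1A3, starting 29 bases before it. It was not found on either strand of this stretch for ALDH1B1, ALDH3A2, ALDH3B1, ALDH7A1, ALDH9A1 and ALDH18A1. Of 35116 promoters, 4.91% hold ATAAA on the sense strand of this stretch and 7.12% on either strand. The longer TATAAA, which contains ATAAA, was in this stretch of none of the 8 members searched and in 2.97% of promoters on either strand. The 300-base promoter of ALDH1A1 had 40.3% G and C and that of ALDH1A3 had 81.7%, against a median of 58.7% over all promoters. These letters were searched after the sequences had been seen, and a match is a description of the sequence only.

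Genes that work with the members had a wide range of levels. In the retinoid pathway 17 of 18 listed genes had a row, with a median authors' mean of 216. The highest means were those of the receptor RXRA at 1273, the retinol transporter STRA6 at 1133 and the retinol dehydrogenase RDH11 at 1108. Per kb of exon ALDH1A1 had 12266, against 105 for RXRA, 148 for STRA6 and 201 for RDH11. The highest of the list on that scale was DHRS3, which reduces retinaldehyde to retinol, at 277 per kb. The retinoic acid receptors RARA, RARG and RARB had 503, 314 and 267, and CYP26B1, which breaks down retinoic acid, had 216.

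Among other enzymes that act on aldehydes, some aldo-keto reductases had levels near those of the leading members. All 10 listed had a row, with a median of 1275. AKR1B10, which reduces retinaldehyde and other carbonyls, had 24595, AKR1B1, the aldose reductase, had 12465 and AKR1C2 had 7107. Per kb of exon ALDH1A1 had 12266 against 13872 for AKR1B10, and ALDH3A1 had 3503 against 3411 for AKR1B1. Other lengths were not used for the aldo-keto reductases, so the order within these pairs is uncertain. AKR1C1, AKR1C2 and AKR1C3 are near copies of each other, as are AKR1B10 and AKR1B15, so the split of reads within each group is uncertain. Alcohol dehydrogenases, which make aldehydes from alcohols, were mostly without a row: 2 of 7 had one, ADH5 at 923 and ADH6 at 4.67.

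Partners of ALDH18A1 in proline and ornithine metabolism had a median authors' mean of 413 over 5 genes, all with a row. The reductase PYCR1, which completes proline synthesis, had 659, the aminotransferase OAT had 592 and PYCRL, a further reductase of this family, had 413. Per kb of exon ALDH18A1 had 374, against 228 for PYCR1, 175 for OAT and 105 for PYCRL. Of 6 genes of lysine, carnitine and choline metabolism, the pathways of ALDH7A1 and ALDH9A1, 3 had a row. These were CHDH, the choline dehydrogenase, at 237, AADAT at 222 and TMLHE, the first enzyme of carnitine synthesis, at 80.9. Per kb of exon ALDH9A1 had 224 and ALDH7A1 had 32.3, against 30.4 for CHDH, 74.8 for AADAT and 15.8 for TMLHE. Per kb of the longest transcript ALDH7A1 had 121. Other lengths were not used for these partner genes, so their order against the members is uncertain.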

How the data were processed

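Total RNA of A549 cells was sequenced in 12 libraries, 6 siYTHDC1 and 6 siSCR. The sample titles gave the groups. Per the labels and the study's methods, the authors used STAR for alignment to hg19, HTSeq for counting on genes and DESeq2 for the comparison, whose model held a batch term. Their signal column, the mean normalized count over all libraries, was used as deposited by the authors. The other 5 columns of numbers hold the authors' own comparison of the groups (fold change, its error, a test statistic and p-values) and were not used. No test between groups was therefore run, and no depth or precision per library can be given.

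Where a symbol has several rows, the highest mean was used. Percentiles give the share of rows with a lower mean. Of the gene IDs, 96.6% matched GENCODE release 44 mapped to GRCh37, the same build, after removal of version numbers, and lengths and positions come from it. Per the study's methods the reads were counted on an earlier GENCODE release, so the lengths can include exons that were not counted. Coding sequences (the longest per gene) were read from GRCh37 and aligned globally (match 5, mismatch -4, gap opening -20, extension -2). A comparison of proteins had been planned and was replaced by this one, as no protein table was used here. Ranks, lengths and identities were tested on simulated data. Alternatives were other lengths, a mean of at least 10, protein-coding genes only and sums over rows. Named were the members, the rest of the family, the 3 highest genes of each list, YTHDC1 and overlapping genes, and KRT19, CDH1, EPCAM, the retinoic acid receptors, DHRS3, CYP26B1, AKR1B15, AKR1C1, AKR1C3 and ADH6 after their values were seen. Of the genes first listed, 1 is not reported here. The members and lists were chosen with earlier results of these data known. Python 3.11.15, numpy 2.4.6, pandas 2.3.3, Biopython 1.88 and matplotlib 3.10.9 were used.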

Additional observations from a re-analysis of the deposited data

How the results depend on the processing

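The order of the members depended on the length used. Against the order per kb of all exons, 3 of 10 members kept their place with the longest transcript, 4 with the coding length and 3 without length scaling. ALDH1A1 and ALDH3A1 were first and second each time. Their joint share of the family level was 89.5% per kb of all exons, 89.8% with the longest transcript and 81.1% without scaling. It was not computed with the coding length, so these values do not show that the share holds on every length scale. The median percentile of the members was 89.4 over all genes, 85.2 over genes with a mean of at least 10, 83.4 over protein-coding genes and 89.4 with all rows of a symbol summed. No paired analysis was possible because the values used are 1 mean per gene over all libraries. For the same reason no replicate could be left out, no spread between libraries was measured, and the part of sequencing batch in these levels was not tested.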
